A study of Homo sapiens with 6 samples.

Results

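The tight junction genes described here are 9 rows of a gene count table, taken by symbol: the claudins CLDN1, CLDN4 and CLDN7, the tetraspan proteins OCLN and MARVELD2, the adhesion molecule F11R, and the plaque proteins TJP1, TJP3 and CGN. All 9 were found among the 21462 genes of the table, and all 9 passed the filter on low counts that left 12857 genes for testing. In Dsg2KO cells no estimate for any of them reached the fold change minimum used here, but the transcripts did not move as a block. MARVELD2, CGN, OCLN and F11R were higher, CLDN1 and TJP1 were lower, and CLDN4, CLDN7 and TJP3 did not pass the test.

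Tight junctions seal the space between neighbouring epithelial cells near their apical side. Claudins form the strands and set which ions pass, occludin (OCLN) and tricellulin (MARVELD2) belong to the MARVEL domain proteins within the strands, and the zonula occludens proteins (TJP1 and TJP3) and cingulin (CGN) lie under the membrane and tie the strands to actin and myosin. In epidermis these junctions sit in the granular layer, whereas claudin 1 is also made in the layers below it.

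The cells were A431, a human epidermoid carcinoma line with keratinocyte features and very high EGFR. The control cells, A431CT, carry the genotype label WT, and the Dsg2KO cells are A431 cells in which DSG2, a desmosomal cadherin, was targeted by CRISPR/Cas9; both were received from another laboratory and grown in DMEM with fetal bovine serum, with no other treatment named for the RNA-seq. Each condition had 3 libraries made from polyA RNA and named as biological replicates. The sources used here do not say whether the knockout line is a single clone or a pool, so an effect of DSG2 loss and a difference between lines cannot be told apart, and the p-values measure only the spread between these libraries. Because these are bulk samples, fewer cells with a transcript and less transcript per cell cannot be told apart either.

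The libraries held 12845719 to 16255692 counts. DSG2 itself had 4196, 4344 and 4112 counts in A431CT and 758, 902 and 804 in Dsg2KO, which is 323 ± 6.08 against 51.9 ± 2.88 CPM (counts scaled to a common library total; mean ± s.d., n = 3 each) or 16.1% of the control level, so the transcript was reduced but present in every library labelled Dsg2KO. Across all tested genes 775, or 6.03%, passed both thresholds, which were a log2 fold change of 0.5 or more in either direction and an adjusted p under 0.05. Of 11 keratinocyte and general epithelial markers 10 were tested, and 4 rose and 3 fell by adjusted p. Of all tested genes 14.3% rose and 15.3% fell by adjusted p. KRT8, KRT18, CDH1 and EGFR rose, whereas KRT5, KRT6A and SFN fell. KRT6A, with a log2 fold change of -1.03, was the only one past both thresholds. KRT14 had at most 2 counts in any library. None of 5 fibroblast markers could be tested, and they summed to at most 0.516 CPM. Endothelial markers summed to 8.45 to 11.3 CPM in A431CT and 15.1 to 15.7 CPM in Dsg2KO, with PECAM1 and CDH5 higher (4.09 to 5.95 and 4.74 to 8.03 CPM). CD68, on the leukocyte list but made by many cell types, fell from 239 to 156 CPM, whereas PTPRC had at most 8 counts. LYZ, also on that list, went the other way, from 2.02 to 3.19 CPM, and did not pass (edgeR adjusted p = 0.0765). The melanocyte list summed to 3.02 to 4.50 CPM. The part of these markers in the results below was not tested.

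The sequence in front of 3 of the genes is shown first, because MARVELD2 had the largest rise of the 9 and CLDN1 and TJP1 were the members that fell. Each line gives 120 bases of GRCh38.p14 from the RefSeq promoter windows, read 5′ to 3′ on the strand of the gene and lying wholly outside the gene as GENCODE draws it. For CLDN1 (chr3:190322447-190322566, minus strand) and TJP1 (chr15:29969050-29969169, minus strand) the run ends at the base before the RefSeq start, and for MARVELD2 (chr5:69414945-69415064, plus strand) it ends 51 bases before it. The first bases of the CLDN1 line lie within CLDN16, which starts at base 190322541 on the other strand. Capitals mark the E2-box CACCTG, the core motif that SNAI and ZEB repressors bind, and the GC box GGGCGG, the motif of SP1 and its relatives, on either strand.
MARVELD2: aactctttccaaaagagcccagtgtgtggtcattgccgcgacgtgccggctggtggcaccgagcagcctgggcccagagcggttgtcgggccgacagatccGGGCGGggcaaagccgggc
CLDN1: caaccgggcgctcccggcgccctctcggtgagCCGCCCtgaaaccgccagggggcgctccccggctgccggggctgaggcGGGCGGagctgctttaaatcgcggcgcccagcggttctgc
TJP1: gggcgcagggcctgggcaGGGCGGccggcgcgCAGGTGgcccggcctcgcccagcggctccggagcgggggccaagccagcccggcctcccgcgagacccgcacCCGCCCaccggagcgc

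Windows of 250 bases before a RefSeq start were present for 8 members, all but F11R, with 14 starts in all. A GC box lay in 11 of the 14 windows and in at least 1 window of each of the 8 genes, against 42.6% of 35116 windows genome-wide. An E2-box lay in 5 of the 14, before CLDN7, OCLN, TJP1 and TJP3, against 17.5% of all windows. CLDN1 and MARVELD2, which moved in opposite directions, both had GC boxes and no E2-box in their windows. Of the other motifs searched on both strands, the grainyhead site AACCNGTT was found once, 27 bases before the start of CGN, against 1.49% of all windows, and the AP-1 site TGANTCA was found before CLDN4 (6.57% of all windows). The kappaB site was found before CLDN1 (9.96%), and the TEAD site GGAATG before none of the 8 (11.9%). The windows of a gene with several starts can overlap, and these matches describe letters only.

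The 9 transcripts spanned a wide range of abundance. Per kilobase of exon, the level in A431CT was 61.5 CPM for F11R, 49.6 for CLDN4, 28.4 for TJP1, 24.4 for CLDN1, 11.4 for CLDN7, 8.44 for MARVELD2, 4.95 for OCLN, 4.27 for CGN and 0.541 for TJP3. The order of the means was the same in Dsg2KO, but it depends on the exon lengths used, above all on that of CLDN4. The 4.70 kb of exon used for CLDN4 include bases upstream of its RefSeq start. A shorter length would raise its level and could place it above F11R. Neighbours in this order did not overlap between libraries in either condition, except CLDN7 and MARVELD2, which drew together to 12.4 ± 1.32 and 11.1 ± 0.546 CPM per kilobase in Dsg2KO and overlapped there. The summed CPM of the 9 genes, without length correction, was 1097 to 1129 in A431CT and 1113 to 1145 in Dsg2KO.

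**Figure D1:**
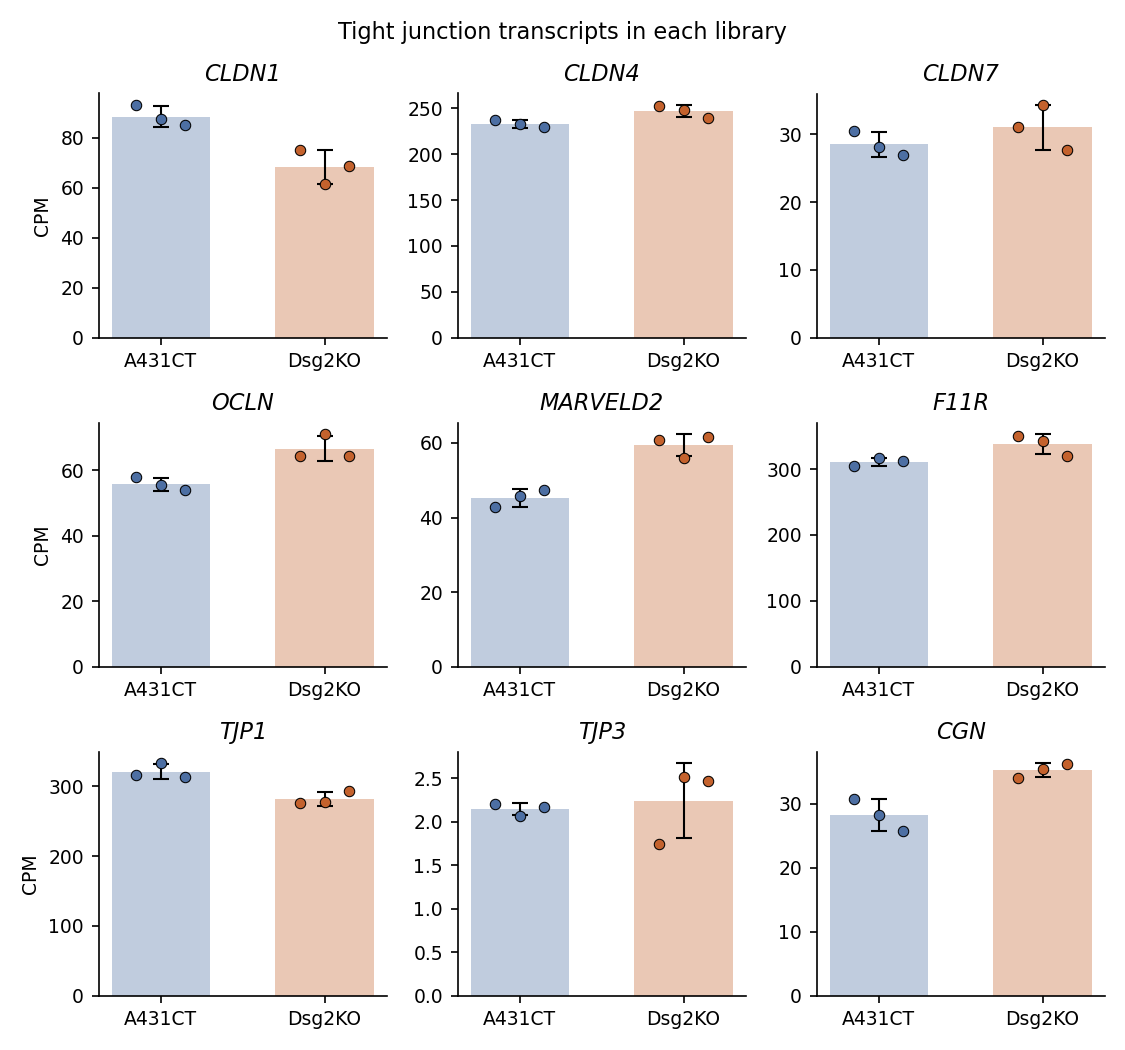
Levels of the 9 tight junction transcripts in CPM (y axes, each from 0) in A431CT and Dsg2KO; points are libraries, bars are means and error bars are s.d. (n = 3 each). The Dsg2KO points lie above all A431CT points for OCLN, MARVELD2, F11R, CGN and CLDN4, below them for CLDN1 and TJP1, and among them for CLDN7 and TJP3.

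Among the claudins only CLDN1 passed of the 3 members. CLDN1, the claudin on which the epidermal water barrier depends, was at 93.0, 87.3 and 85.0 CPM in A431CT and at 75.2, 61.3 and 68.6 CPM in Dsg2KO. Every Dsg2KO library lay below every control library, and the level fell by 22.8% (log2 fold change -0.37, SE 0.07; edgeR quasi-likelihood test, Benjamini-Hochberg adjusted p = 6.0e-04 over all tested genes). Dsg2KO replicate 2 was the lowest of the 6, and without it the log2 fold change was -0.30 with an adjusted p of 0.0036.

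CLDN4, which seals simple and glandular epithelia and is made in upper epidermis, did not pass. It was at 238, 233 and 229 CPM in A431CT and at 252, 248 and 239 CPM in Dsg2KO. The conditions did not overlap, but the lowest Dsg2KO library and the highest control library differed by little, and the log2 fold change of 0.08 (95% interval 0.00066 to 0.16) had an adjusted p of 0.123. With libraries scaled by total counts alone CLDN4 passed (log2 fold change 0.10, adjusted p = 0.0493).

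CLDN7, a claudin with a role in cell-matrix adhesion as well as in the strands, was at 30.4, 28.2 and 26.9 CPM in A431CT and at 31.1, 34.3 and 27.7 CPM in Dsg2KO. The libraries overlapped, and the difference was 0.12 on the log2 scale with a 95% interval of -0.06 to 0.30 (adjusted p = 0.316). Its exons share 38 bases with ELP5 on the other strand and 269 with a readthrough gene that has no row in the table, and the counting is not stated to use strand, so reads of these bases could belong to either gene; ELP5 had a log2 fold change of 0.11 (adjusted p = 0.172).

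Within a library, where scaling between libraries plays no part, the ratio of CLDN1 to CLDN4 counts was 0.392, 0.375 and 0.371 in A431CT and 0.298, 0.247 and 0.286 in Dsg2KO. Every Dsg2KO library lay below the controls for CLDN1 and above them for CLDN4, so this ratio could not overlap. The ratio of CLDN1 to CLDN7 was 3.10 ± 0.0510 and 2.23 ± 0.381, likewise without overlap, whereas that of CLDN7 to CLDN4 was 0.122 ± 0.00546 and 0.126 ± 0.0113 with overlap. With 3 libraries against 3, an exact two-sided permutation test cannot go below p = 0.1, which was the value for both CLDN1 ratios (0.175 after adjustment over the 7 ratios computed) and so does not pass; for CLDN7 to CLDN4 it was 0.7.

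The table listed 24 claudins, of which 14 were tested and 5 had no count in any library. Weighted by exon length, CLDN1 made up 16.5% ± 0.411 of all claudin transcripts in A431CT and 13.0% ± 1.35 in Dsg2KO, and CLDN4 33.6% ± 0.141 and 36.1% ± 0.504, neither with overlap. CLDN7 made up 7.75% ± 0.313 and 8.55% ± 0.777, with overlap. The size of each share depends on the exon lengths chosen, above all on that of CLDN4. Another large share belonged to CLDN11, a claudin known from myelin and Sertoli cells, at 22.97% ± 1.24 and 25.26% ± 0.616. Over the 14 tested claudins, 4 fell and none rose by adjusted p, against 15.3% of all tested genes called lower and 14.3% called higher: CLDN1, CLDN12 (log2 fold change -0.19, adjusted p = 0.0150), CLDN3 (-0.58, adjusted p = 0.0305) and CLDN5 (-1.20, adjusted p = 0.0419). Their median log2 fold change was -0.08. CLDN11 had a log2 fold change of 0.12 and an adjusted p of 0.0557. CLDN5, the claudin of endothelium, was read at no more than 17 counts in any library, and CLDN3 at 4.13 to 6.17 CPM on average; both lost the call in DESeq2. CLDN3 also lost it without A431CT replicate 1 or any Dsg2KO library, and CLDN5 without the low-count filter, any A431CT library, or Dsg2KO replicate 2 or 3.

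All of the MARVEL domain genes on the tight junction lists rose. MARVELD2, or tricellulin, which closes the points where 3 cells meet, was at 42.7, 45.8 and 47.4 CPM in A431CT and at 60.7, 56.1 and 61.5 CPM in Dsg2KO. No libraries overlapped, and its rise of 31.1% was the largest of the 9 members (log2 fold change 0.39, SE 0.06, adjusted p = 2.2e-04).

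OCLN, or occludin, was at 57.7, 55.4 and 53.9 CPM in A431CT and at 64.3, 71.0 and 64.2 CPM in Dsg2KO, again without overlap, a rise of 19.5% (log2 fold change 0.26, SE 0.06, adjusted p = 0.0035). An unprocessed pseudogene of OCLN, OCLNP1, lies further along chromosome 5 and has no row in the table, so how reads that match both copies were counted is unknown. MARVELD3, the remaining MARVEL gene on the tight junction lists, rose by 0.18 on the log2 scale (adjusted p = 0.0151), and it lost this call without A431CT replicate 1 or Dsg2KO replicate 2. All 3 of these MARVEL genes thus passed the adjusted p in the same direction, against 14.3% of all tested genes that were called higher.

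The ratio of MARVELD2 to OCLN counts was 0.815 ± 0.0710 in A431CT and 0.898 ± 0.0930 in Dsg2KO and overlapped (exact two-sided permutation p = 0.3). OCLN to CLDN1 was 0.630 ± 0.00820 and 0.983 ± 0.156 without overlap, with Dsg2KO replicate 2 the highest at 1.16, and its exact permutation p was the smallest possible, 0.1. As OCLN rose and CLDN1 fell, each without overlap, the separation of this ratio and its p were fixed and add nothing to them. Of the angulins, which recruit tricellulin to tricellular contacts, LSR rose from 329 to 381 CPM (log2 fold change 0.21, adjusted p = 0.0013), and ILDR1 had a log2 fold change of -0.03 (adjusted p = 0.872).

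MARVELD2 and OCLN lie side by side on the plus strand of chromosome 5 in GRCh38 (chr5:69415065-69444330 and chr5:69492292-69558104), with no other tested gene between them. RAD17, a DNA damage checkpoint gene that ends 263 bases before MARVELD2 begins and reads in the same direction, rose as well (log2 fold change 0.30, SE 0.07, adjusted p = 0.0063). The tested genes beyond these 3 did not pass: TAF9 had a log2 fold change of -0.11 (adjusted p = 0.102) and GTF2H2C of 0.12 (adjusted p = 0.234), the latter with near-identical copies nearby. Over the 25 tested genes on each side of MARVELD2, the median log2 fold change was 0.04, with 28 above 0 and 22 below.

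CLDN1 (chr3:190305707-190322446, minus strand) showed no such run. P3H2, a collagen prolyl hydroxylase and the tested gene next to it on one side, rose by 0.46 on the log2 scale (adjusted p = 6.5e-06), and CLDN16, which starts 94 bases away on the other strand, had a log2 fold change of 0.18 with an interval from -0.56 to 0.92. The median of the 50 tested genes around CLDN1 was 0.09, so its own fall stood 0.46 below it. For the other 7 members the median of the neighbours lay between -0.03 and 0.08, over 50 tested genes each except TJP1, which had 34. Genes directly beside some of them also passed in edgeR. TUFT1 beside CGN rose by 0.30 (adjusted p = 0.0099) and TSTD1 beside F11R by 0.39 (adjusted p = 0.0449). FAN1 beside TJP1 fell by 0.14 (adjusted p = 0.0460). CLDN3 fell beside CLDN4, which did not pass. Apart from MARVELD2 beside OCLN, the remaining adjacent genes did not pass. Whether adjacent genes moved together was not tested.

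F11R, which encodes the junctional adhesion molecule JAM-A, was at 304, 317 and 313 CPM in A431CT and at 350, 343 and 321 CPM in Dsg2KO. The conditions did not overlap, but the lowest Dsg2KO library lay close to the highest control library, and the rise was 8.57% (log2 fold change 0.12, SE 0.04, adjusted p = 0.0371). The call was lost without A431CT replicate 1 (adjusted p = 0.134), A431CT replicate 3 (0.0661), Dsg2KO replicate 1 (0.164) or Dsg2KO replicate 2 (0.108). A readthrough gene annotated on the same strand shares 1853 exonic bases with F11R and has no row in the table. None of the 4 related adhesion genes tested passed; CXADR, the coxsackievirus and adenovirus receptor, had a log2 fold change of -0.12 (adjusted p = 0.234), and ESAM, at about 1 CPM, of 0.31 (adjusted p = 0.646).

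The plaque proteins were divided. TJP1, or ZO-1, the main scaffold on which strands assemble, was at 316, 333 and 314 CPM in A431CT and at 276, 277 and 293 CPM in Dsg2KO. All 3 Dsg2KO libraries were below the controls, and the level fell by 12.2% (log2 fold change -0.19, SE 0.04, adjusted p = 0.0024).

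TJP3, or ZO-3, was scarce, with 28 counts in each A431CT library and 26, 41 and 40 in Dsg2KO. At 2.15 ± 0.0721 and 2.24 ± 0.431 CPM the conditions overlapped, and the interval of the log2 fold change, -0.51 to 0.64, was wide enough that a change of the size seen in the other members was not detectable at this depth (adjusted p = 0.883). TJP3 shares 42 exonic bases with APBA3 on the other strand.

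CGN, or cingulin, was at 30.8, 28.2 and 25.7 CPM in A431CT and at 34.0, 35.4 and 36.2 CPM in Dsg2KO. The conditions were separate, and CGN rose by 24.7% (log2 fold change 0.32, SE 0.08, adjusted p = 0.0049). The ratio of MARVELD2 to TJP1 counts, which sets the strongest rise against a fall, was 0.135, 0.137 and 0.151 in A431CT and 0.220, 0.203 and 0.210 in Dsg2KO. Every Dsg2KO library lay above the controls for MARVELD2 and below them for TJP1, so this ratio could not overlap. Its exact permutation p of 0.1, the smallest possible, was thereby fixed and adds nothing to the values of the single genes.

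**Figure D2:**
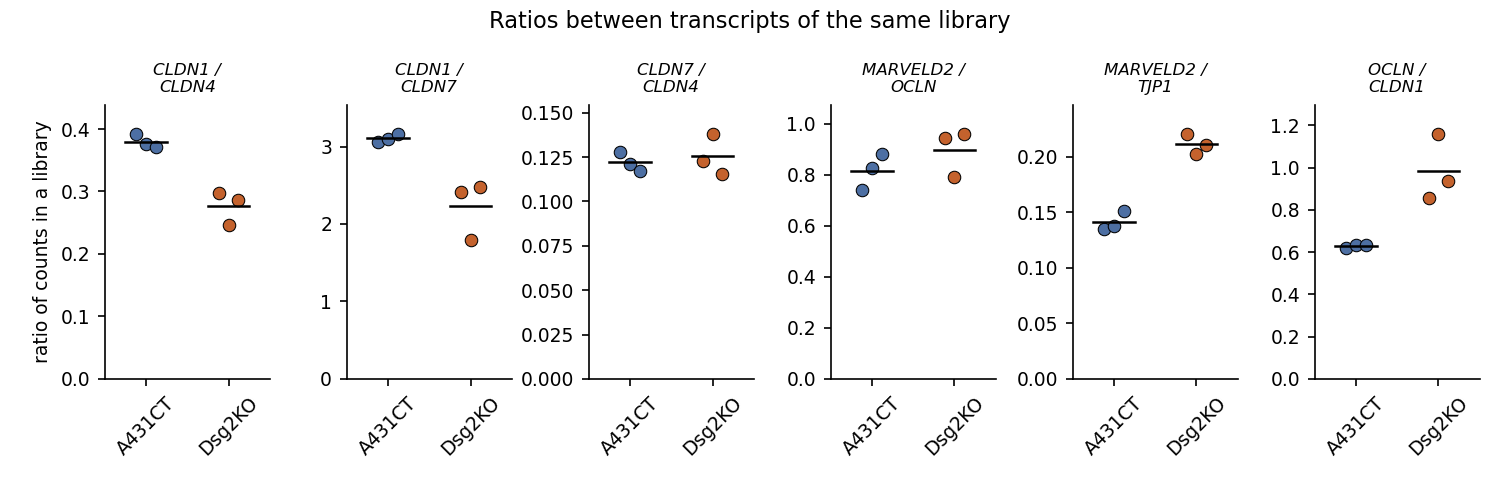
Ratio of counts between a pair of transcripts of the same library (y axes, each from 0) for 6 of the ratios computed, in A431CT and Dsg2KO; points are libraries and lines are means. Ratios with CLDN1 and the ratio of MARVELD2 to TJP1 separate the conditions, and CLDN7 to CLDN4 and MARVELD2 to OCLN overlap. Apart from CLDN1 to CLDN7, the ratios that separate pair genes that were each separate in opposite directions, so they could not overlap.

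Counted together, 0 of the 9 members passed both thresholds in edgeR, DESeq2 or the likelihood ratio test, against a background of 6.03% of tested genes. By adjusted p alone 6 of 9 passed in each of the 3, against 29.6% of all tested genes, and 7 had an unadjusted p under 0.05. The 4 that rose stand beside 14.3% of all genes called higher, and the 2 that fell beside 15.3% called lower. In 7 of 9 the ranges of A431CT and Dsg2KO were separate, against 42.6% of all tested genes. The median log2 fold change of the members was 0.12 and that of all tested genes -0.0048, and the median absolute log2 fold changes were 0.19 and 0.14. CLDN1, TJP1, OCLN, MARVELD2 and CGN passed the adjusted p in all 14 alternative analyses.

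**Figure D3:**
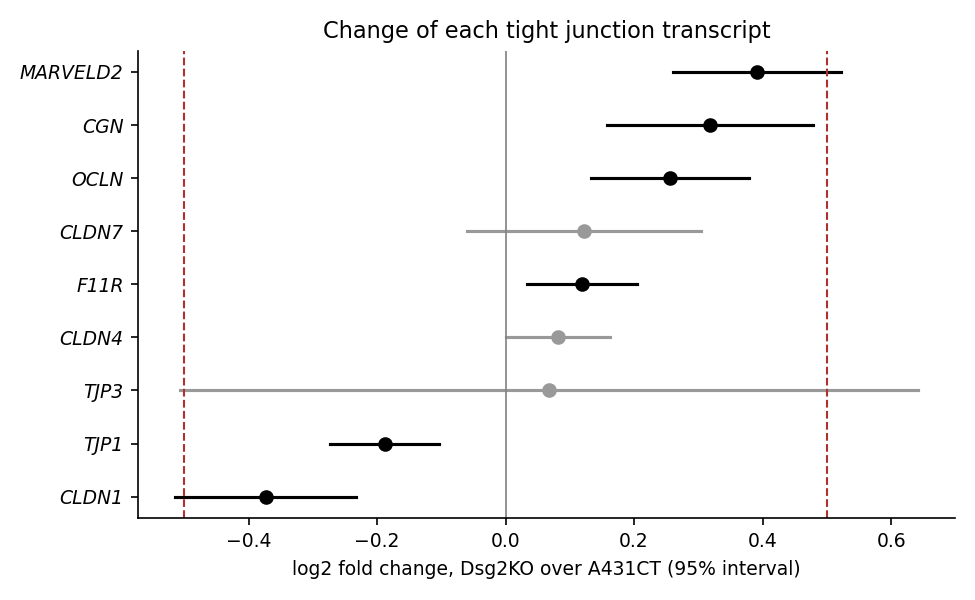
Log2 fold change of each member in Dsg2KO over A431CT (x axis) with its 95% interval from edgeR, ordered by size; black marks an adjusted p under 0.05, grey the rest, and dashed red lines the fold change minimum of 0.5. All 9 estimates lie between -0.37 and 0.39, inside the dashed lines, but the intervals of CLDN1 (to -0.51), MARVELD2 (to 0.52) and TJP3, the widest, cross them.

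Of 60 other tight junction genes listed, 45 were tested, and 6 of them passed both thresholds (2 higher and 4 lower), against 6.03% of all tested genes. The median log2 fold change of the 45 was -0.01, and 12 passed the adjusted p alone, 4 higher and 8 lower. Over all tested genes 29.6% passed it, 14.3% higher and 15.3% lower. MAGI1, a membrane-associated scaffold, rose from 2.25 ± 0.956 to 4.57 ± 0.642 CPM (log2 fold change 1.01, adjusted p = 0.0131), although A431CT replicate 1 held 17 counts and replicate 2 held 44, and the call was lost without A431CT replicate 1 or Dsg2KO replicate 1. Among the polarity genes, which place the junction along the lateral membrane, PARD6G rose by 0.55, PRKCZ, an atypical protein kinase C, fell by 0.55, and PARD3B fell by 1.90 on the log2 scale from 1.74 to 0.462 CPM. CLDN3 and CLDN5, given above, complete the 6. The count of 6 dropped to 3 without A431CT replicate 1 or without Dsg2KO replicate 3. Below the fold change minimum, PATJ, a polarity scaffold, fell by 0.27 (adjusted p = 0.0026) and ARHGEF18, a guanine nucleotide exchange factor at junctions, by 0.21 (adjusted p = 0.0010).

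**Figure D4:**
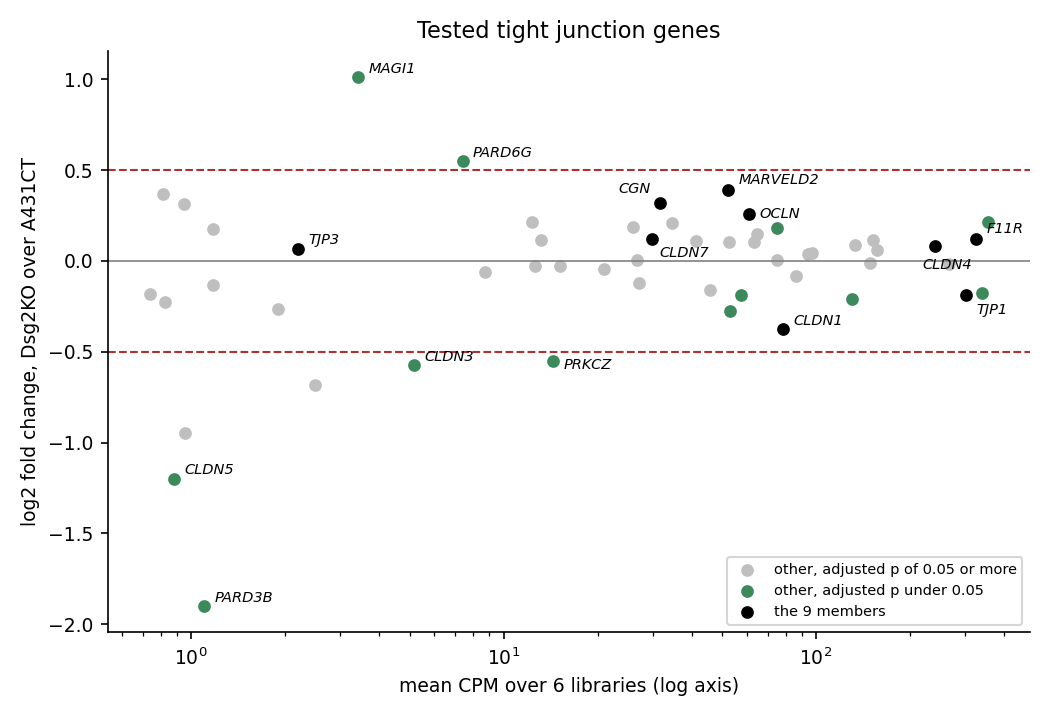
Log2 fold change in Dsg2KO over A431CT (y axis) against the mean CPM of the 6 libraries (x axis, log scale) for the 9 members (black) and the 45 other tested tight junction genes (green, adjusted p under 0.05; grey, the rest), with dashed lines at the fold change minimum of 0.5. The 6 named genes outside the lines all lie below 15 CPM, and the members lie inside the lines over the whole range of levels.

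Among genes that act on claudins or on their transcription, the calls are to be read against the 29.6% of all tested genes that passed the adjusted p. Of 6 claudin partners 2 passed, 1 in each direction, and SPINT1, an inhibitor of the matriptase protease, rose by 0.18 on the log2 scale (adjusted p = 0.0028). Of 10 tested regulators 2 passed: GRHL1, a grainyhead factor, rose by 0.32 (adjusted p = 0.0077) and ELF3, an epithelial ETS factor, by 0.24 (adjusted p = 0.0104), the latter not without Dsg2KO replicate 1 or 2. GRHL2 and TP63 had log2 fold changes of -0.03 and -0.02. The E2-box repressors SNAI1, SNAI2 and ZEB1 did not pass (SNAI2 0.21, adjusted p = 0.178), and ZEB2 and TWIST1 were below the filter.

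The other junctions of the lateral membrane showed changes of similar size. Their calls stand beside 29.6% of all tested genes by adjusted p and 6.03% by both thresholds. JUP was counted among both the adherens junction and the desmosome genes. Of 11 adherens junction genes 0 passed both thresholds and 5 passed the adjusted p (4 higher and 1 lower; edgeR, with 7 at an unadjusted p under 0.05), at a median log2 fold change of 0.06; CDH1, or E-cadherin, rose from 369 ± 7.53 to 447 ± 12.5 CPM (0.28, adjusted p = 4.2e-05) and NECTIN2 rose by 0.36 (adjusted p = 3.8e-05). Of 8 tested desmosome genes other than DSG2, 0 passed both thresholds and 4 passed the adjusted p, 2 in each direction (5 at an unadjusted p under 0.05), with DSC3, the desmocollin 3 gene, lower by 0.31 and PERP lower by 0.28 on the log2 scale. Whether tight junction genes changed more or less than these was not tested.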

How the data were processed

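PolyA RNA of A431CT and Dsg2KO cells was sequenced in 3 libraries each. Alignment to GRCh38 and counting were done by the authors in CLC Genomics Workbench, and their deposited table gives raw counts in whole numbers, not normalized; its gene annotation and strand setting are not given in the sources used here. All 6 columns were mapped by name.

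Counts were analysed in R 4.3.3 with edgeR 4.0.16: filterByExpr (minimum count 10, minimum total 15), TMM factors, a quasi-likelihood test of condition alone, and p-values adjusted by Benjamini-Hochberg over 12857 genes, in place of the differential expression tool of the authors' software, with their thresholds of 0.05 and 0.5. CPM used TMM-scaled totals. Intervals are 95%, and 3 counts correspond to 0.184 to 0.236 CPM. Replicates differed by 2.64 to 4.14 times counting error (chi-square per degree of freedom), so none was a copy. The edgeR fit alone was also run on simulated counts, in which far fewer genes changed than passed here.

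Lengths (exon union) and positions came from GENCODE 44 and matched 19483 of 21462 symbols; promoters came from RefSeq on GRCh38.p14. The members and all gene lists were chosen with earlier results of these data known. Named are all members, DSG2, the genes of each list past both thresholds (or, where fewer than 2 passed, the 2 with the smallest p) and the 3 genes most like MARVELD2; neighbouring genes, marker genes, CLDN11, CLDN12, ILDR1, ELP5 and the regulators that did not pass were named after their values were seen; some results the rule or the ratios gave are not reported here. Alternatives were other filters, scalings (RLE, upper-quartile, total counts), DESeq2 1.42.0, the likelihood ratio test, a replicate block, other fold change minimums, claudin shares without length and each library left out; leaving libraries out of the count ratios was added after the data were seen.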

Additional observations from a re-analysis of the deposited data

How the results depend on the processing

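Of the values of the 9 members under 14 alternatives, 119 kept their direction and side of the adjusted p, F11R lost its call 4 times and CLDN4 gained it once. The log2 fold change of TJP3 turned negative without Dsg2KO replicate 2 or 3 (range over libraries left out -0.0183 to 0.216), that of ESAM without A431CT replicate 2 (-0.0537 to 0.868), and the quotient of the CLDN7 to CLDN4 ratios fell below 1 without Dsg2KO replicate 2 (0.977 to 1.07); the cause was not tested. Without a fold change minimum 3802 genes, 6 members and 12 other tight junction genes passed, and with a minimum of 1 the counts were 250 for all genes and 3 for the other tight junction genes. Leaving out a library gave 3 to 5 of the latter. Without length correction CLDN1 made up 14.8% of claudin counts in A431CT and 11.5% in Dsg2KO, CLDN4 39.0% and 41.4%, and CLDN7 4.76% and 5.20%. The replicate numbers do not pair the samples (correlations of same-numbered libraries -0.0027 to 0.0539); with a replicate block 769 genes passed both thresholds and 6 members the adjusted p. DESeq2 called 659 genes. Over the scalings the median log2 fold change of all genes lay between -0.0048 and 0.0179. At 28 counts in each A431CT library, depth limits what can be said of TJP3.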

Other observations

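The genes whose levels followed MARVELD2 most closely over the 6 libraries, by Euclidean distance between centred log2 CPM, were DYRK1A (distance 0.0432), RIPOR1 (0.0679) and TRAPPC10 (0.0699). Their log2 fold changes were 0.37, 0.42 and 0.41, all with an adjusted p under 0.05 in edgeR. With 2 conditions of 3 libraries, this measure is led by the difference between the conditions, and the list describes these libraries only.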
